A study of Mus musculus with 6 samples.

Results

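The maternally expressed miRNAs that lie antisense to Rtl1 in the imprinted Dlk1-Dio3 region of mouse chromosome 12 were profiled in normal and in tumour-bearing liver. The members are set by a rule on names, every probe for mmu-miR-127, mmu-miR-136, mmu-miR-337, mmu-miR-431, mmu-miR-433 or mmu-miR-434, whichever arm of the hairpin it reads. This gave 8 of the 566 mouse miRNA probes of the panel, since mmu-miR-337-3p, mmu-miR-337-5p, mmu-miR-434-3p and mmu-miR-434-5p each have a probe of their own. miRNA levels were read with the NanoString assay, which counts captured molecules by a colour code without amplification, in total RNA from the fresh frozen liver of 3 Apcfl/fl and 3 Apc+/+ mice, all on the C57Bl/6 background. The Apcfl/fl mice are homozygous for a hypomorphic allele of Apc, a brake on Wnt signalling, and their RNA came from hepatocarcinoma (HCC) with active Wnt/β-catenin signalling. The Apc+/+ mice carry the wild-type alleles, had no tumour and gave normal liver. They are called normal livers 1 to 3 below, and those of the Apcfl/fl mice tumours 1 to 3, by their replicate numbers. Age and sex are not given in the sources used here, and neither a Cre driver nor a treatment is named for these 6 mice. RNA was taken from the tissue as a whole, so that fewer cells of a type and less RNA per cell cannot be told apart.

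The Dlk1-Dio3 region holds genes that are read from only the paternal or only the maternal chromosome. Dlk1, Rtl1 and Dio3 are expressed from the paternal copy, whereas Meg3 and the miRNAs of the region are expressed from the maternal copy. Rtl1 derives from a retrotransposon and is needed for the placenta, and the miRNAs antisense to it are fully complementary to its transcript and can guide its cleavage. The region is active in the embryo, the placenta and the brain, and is mostly silent in adult liver.

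The 6 hairpins were placed with RefSeq on assembly GRCm38.p6, since no build is named for the counts. They lie on the plus strand in the order Mir337, Mir431, Mir433, Mir127, Mir434 and Mir136, within 9600 bp at chr12:109585789-109595388, and neighbours are separated by 727 to 4561 bp. All 6 lie inside the RefSeq gene model of Rtl1 (chr12:109564900-109604418). The table used here gives no exons, so exonic and intronic positions were not assigned. Each of the 8 probes was matched to a mature sequence of that annotation. Those sequences are shown because they are what each probe reads and because their seeds, bases 2 to 8 in capitals, set which transcripts each miRNA can pair with.
miR-337-5p: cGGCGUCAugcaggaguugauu
miR-337-3p: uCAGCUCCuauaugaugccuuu
miR-431-5p: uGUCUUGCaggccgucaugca
miR-433-3p: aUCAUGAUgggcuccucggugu
miR-127-3p: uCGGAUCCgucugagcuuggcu
miR-434-5p: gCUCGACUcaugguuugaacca
miR-434-3p: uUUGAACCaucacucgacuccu
miR-136-5p: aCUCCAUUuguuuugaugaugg

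The probes for miR-127, miR-136, miR-431 and miR-433 name no arm. Their arm was taken from the present miRBase name of the identifier in the table, from general knowledge, and could not be checked against a probe sequence. The other arms of these 4 hairpins had no probe. The 12 mature miRNAs of the 6 hairpins have 12 distinct seeds, and none of these seeds occurs in another of the 1738 mature mouse miRNAs of the table. The 8 members therefore share a position and not a seed. Their content of G and C runs from 8 of 22 bases in miR-136 to 13 of 22 in miR-127.

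Between 82942 and 133331 counts fell on mouse miRNAs in each liver. Background was read from 33 probes for viral miRNAs on the same panel, and a probe was called above background in a liver where its count exceeded the mean plus 2 SD of these probes. That limit lay between 13.1 and 27.8 counts, with a mean of 19.6 over the 6 livers. Normalised counts are the deposited counts scaled by edgeR's TMM method to the mean library. The labelled tissue was borne out by miR-122, the main miRNA of hepatocytes, which held 20.2%, 28.0% and 22.3% of the mouse counts in the normal livers and 6.94%, 10.4% and 11.6% in the tumours.

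The Rtl1 antisense miRNAs stood mostly at background in normal liver, and the number of members above it differed from tumour to tumour. In the normal livers, 1, 0 and 0 of the 8 members exceeded the limit, which is 12.5%, 0.0% and 0.0%. In the tumours, 4, 7 and 2 of the 8 exceeded it, which is 50.0%, 87.5% and 25.0%. Over all 566 mouse probes this share was 25.4%, 25.4% and 29.2% in the normal livers and 24.7%, 35.7% and 31.4% in the tumours. A share over 8 probes moves in steps of 12.5%, so the spread of the 2 shares is not compared. A list of 55 other probes for miRNAs of the Dlk1-Dio3 region, which leaves out miR-432, exceeded the limit in 4, 3 and 6 cases in the normal livers and in 7, 29 and 6 cases in the tumours. Tumour 2 had the highest number of the 6 livers in both sets, and also the lowest limit, at 13.1 counts. With the highest viral probe of each liver as a stricter limit, the members above it numbered 1, 0 and 0 in normal liver and 1, 7 and 1 in the tumours, so that the count in tumour 1 depends on where the limit is set. Of the 55 other probes, 2, 4 and 4 in normal liver and 4, 23 and 5 in the tumours exceeded that stricter limit.

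**Figure D1:**
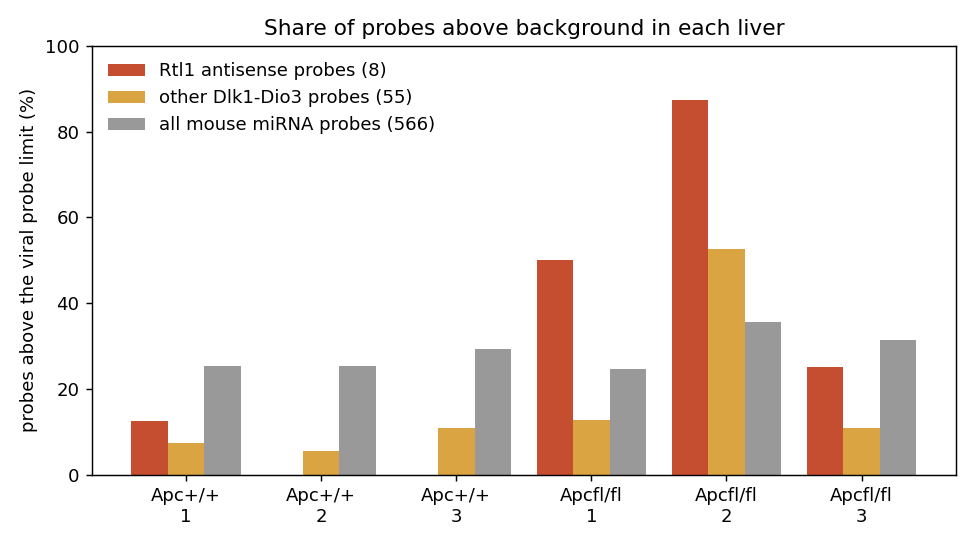
Share of probes (%, linear axis from 0) whose count exceeded the mean plus 2 SD of the viral probes, in each of the 6 livers, for the 8 Rtl1 antisense probes, 55 other probes of the Dlk1-Dio3 region and all 566 mouse probes. The share of the Rtl1 antisense probes lies at or below 12.5% in the normal (Apc+/+) livers and is 50.0%, 87.5% and 25.0% in the tumours (Apcfl/fl).

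Summed over the 8 members, the counts were 84.99, 91.32 and 41.99 in the normal livers and 233.32, 1027.3 and 156.99 in the tumours. As a share of all mouse miRNA counts this was 0.102% (95% Wilson interval 0.0829 to 0.127%), 0.0982% (0.0797 to 0.12%) and 0.0315% (0.0233 to 0.0426%) in normal liver. In the tumours it was 0.242% (0.213 to 0.275%), 0.998% (0.939 to 1.06%) and 0.118% (0.101 to 0.138%). These intervals cover counting error only. The group was thus a minor part of the miRNA of every liver, and its intervals in normal livers 1 and 2 overlap that of tumour 3. These sums and shares include members at background, which were most of those in normal liver. Summed over the members above the limit alone, the counts were 32.33, 0 and 0 in the normal livers and 172.66, 1020 and 116.66 in the tumours.

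miR-127, encoded at chr12:109592888-109592909, showed the widest difference between the genotypes among the members. Its counts were 1, 2.33 and 5.33 in the normal livers and 59.33, 406.33 and 22.33 in the tumours. All 3 normal values lay under the limit and all 3 tumour values above it, so that the groups did not overlap. Tumour 3 passed narrowly, at 22.33 counts against a limit of 19.2, and lay under the highest viral probe of that liver, at 26.33. The mean normalised count was 3.56 ± 2.71 (SD, n = 3) in normal liver and 166 ± 230 (SD, n = 3) in the tumours. Because normal liver was at background, the fold change is given as a bound against the mean limit of the normal livers, 23.8 normalised counts, and miR-127 was at least 7.0-fold higher in the tumours. Without tumour 2 this bound was 1.4-fold, and the mean count fell to 18.1, under the minimum of 20 set for the test. The fitted log2 fold change, which for a miRNA at background depends on the prior count, was 5.60 (SE 1.44, 95% interval 2.20 to 8.99), with an adjusted p of 0.068 by the quasi-likelihood test of edgeR. It did not reach the threshold of 0.05, and over the alternative settings its adjusted p ranged from 8.5e-05, with DESeq2, to 0.23, without normal liver 2. It passed the threshold without tumour 3 (log2 fold change 6.11, adjusted p = 0.046 in edgeR's test). When all 566 probes were fitted without tumour 2, an alternative added after the data had been seen, the log2 fold change was 3.59 (adjusted p = 0.071 in edgeR's test). The two-sided exact permutation test gave p = 0.1, the smallest value that 3 against 3 livers allow.

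miR-136, encoded at chr12:109595331-109595352, was the second member whose groups did not overlap and the only one seen above background in normal liver. It had 32.33, 17.33 and 1 counts in normal liver and 47.33, 272.33 and 94.33 counts in the tumours. Normal liver 1 exceeded its limit and, after scaling, came close to the lowest tumour, with 40.8 normalised counts against 42.6 in tumour 1. The 3 normal livers differed widely among themselves, from 1.23 to 40.8 normalised counts. Means were 21.1 ± 19.8 (SD, n = 3) in normal liver and 131 ± 137 (SD, n = 3) in the tumours, with a log2 fold change of 2.64 (SE 1.13, 95% interval -0.02 to 5.30, adjusted p = 0.20 in edgeR's test). Its exact permutation p was likewise 0.1. Without tumour 2 the log2 fold change was 1.37 (adjusted p = 0.38 in edgeR's test). In contrast to the other members, miR-136 was higher in tumour 3 than in tumour 1, which had 0.687 times the normalised count of tumour 3.

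The arms of miR-434 were both measured. miR-434-3p (chr12:109594565-109594586) had 9, 9 and 1 counts in the normal livers and 24, 118 and 13 counts in the tumours. Only tumour 2 exceeded the limit, and tumour 3 fell within the range of the normal livers after scaling. miR-434-5p (chr12:109594528-109594549) had 13.33, 18.33 and 6.33 counts against 33.33, 75.33 and 8.33. Here tumours 1 and 2 exceeded the limit and tumour 3, at 5.47 normalised counts, was the lowest of the 6 after scaling. Tumour 3 and the normal livers were all at background, and its deposited count was not the lowest. Normalised means were 7.88 ± 5.76 and 51.7 ± 63.8 (SD, n = 3) for miR-434-3p, and 15.7 ± 7.43 and 38.4 ± 37.9 (SD, n = 3) for miR-434-5p. The log2 fold change was 2.69 for miR-434-3p (SE 1.17, 95% interval -0.07 to 5.45, adjusted p = 0.20) and 1.30 for miR-434-5p (SE 0.94, 95% interval -0.91 to 3.51, adjusted p = 0.41), both in edgeR's test, and the exact permutation p was 0.3 and 0.6. Against the limit of the normal livers they were at least 2.2-fold and 1.6-fold higher, and both bounds were under 1 without tumour 2. The difference of mean log2 values of miR-434-5p turned from 0.71 to -0.10 without that tumour. The count of the 3p arm over that of the 5p arm was 1.57 in tumour 2, the only liver where both exceeded the limit. Since probes differ in efficiency, this ratio does not compare the abundance of the arms.

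For miR-431 (chr12:109590459-109590479), the counts in normal liver were nearly even at 11.67, 14.67 and 12.67, and those in the tumours were 32.67, 66.67 and 13.67. Tumours 1 and 2 exceeded the limit and lay above every normal liver, while tumour 3 had the lowest normalised count of all 6 (8.98). Tumour 3 and the normal livers were all at background, and its deposited count was not the lowest. Its means were 16.1 ± 1.71 (SD, n = 3) and 36.3 ± 31.4 (SD, n = 3) normalised counts, at least 1.5-fold higher in the tumours against the limit, and under 1 without tumour 2. The difference of its mean log2 values went from 0.70 to 0.04 without that tumour. The log2 fold change was 1.13 (SE 0.73, 95% interval -0.60 to 2.87, adjusted p = 0.37 in edgeR's test), with an exact permutation p of 0.5. miR-433 (chr12:109591781-109591802) had 7.33, 13.33 and 1.33 counts in normal liver and 19.33, 59.33 and 1 counts in the tumours. It exceeded the limit in tumour 2 alone, where it was highest. Its lowest value was 1 count in tumour 3, beside 1.33 in normal liver 3, both at background. The normalised means were 9.08 ± 7.37 and 27 ± 32.2 (SD, n = 3). With a mean of 16.9 counts it was under the minimum for the test, and with no filter its log2 fold change was 2.01 (SE 1.17, adjusted p = 0.52 in edgeR's test). Without tumour 2 that value was 0.31, and the difference of mean log2 values turned from 0.72 to -0.34. Its exact permutation p was 0.7.

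miR-337, the first hairpin of the row, was the member with the least signal. miR-337-3p (chr12:109585850-109585871) had 8, 11 and 7 counts in normal liver and 6, 22 and 2 counts in the tumours. It passed the limit in tumour 2, while the other 2 tumours were lower than every normal liver after scaling. miR-337-5p (chr12:109585818-109585839) had 2.33, 5.33 and 7.33 counts against 11.33, 7.33 and 2.33, and was above background in none of the 6 livers. It was also the only member that was not highest in tumour 2. Normalised means were 10.7 ± 2.51 and 10 ± 11.7 (SD, n = 3) for the 3p arm and 6.16 ± 3.05 and 6.5 ± 4.47 (SD, n = 3) for the 5p arm. Neither was tested. With no filter the fitted log2 fold changes were 0.24 and 0.42, whereas the difference of mean log2 values was -0.56 for the 3p and -0.05 for the 5p arm. At this depth no difference was detectable for either arm, since the 5p arm was at background in all 6 livers and the 3p arm in 5 of them (exact permutation p = 0.6 for the 3p and 1.0 for the 5p arm, with 0.1 the smallest possible).

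**Figure D2:**
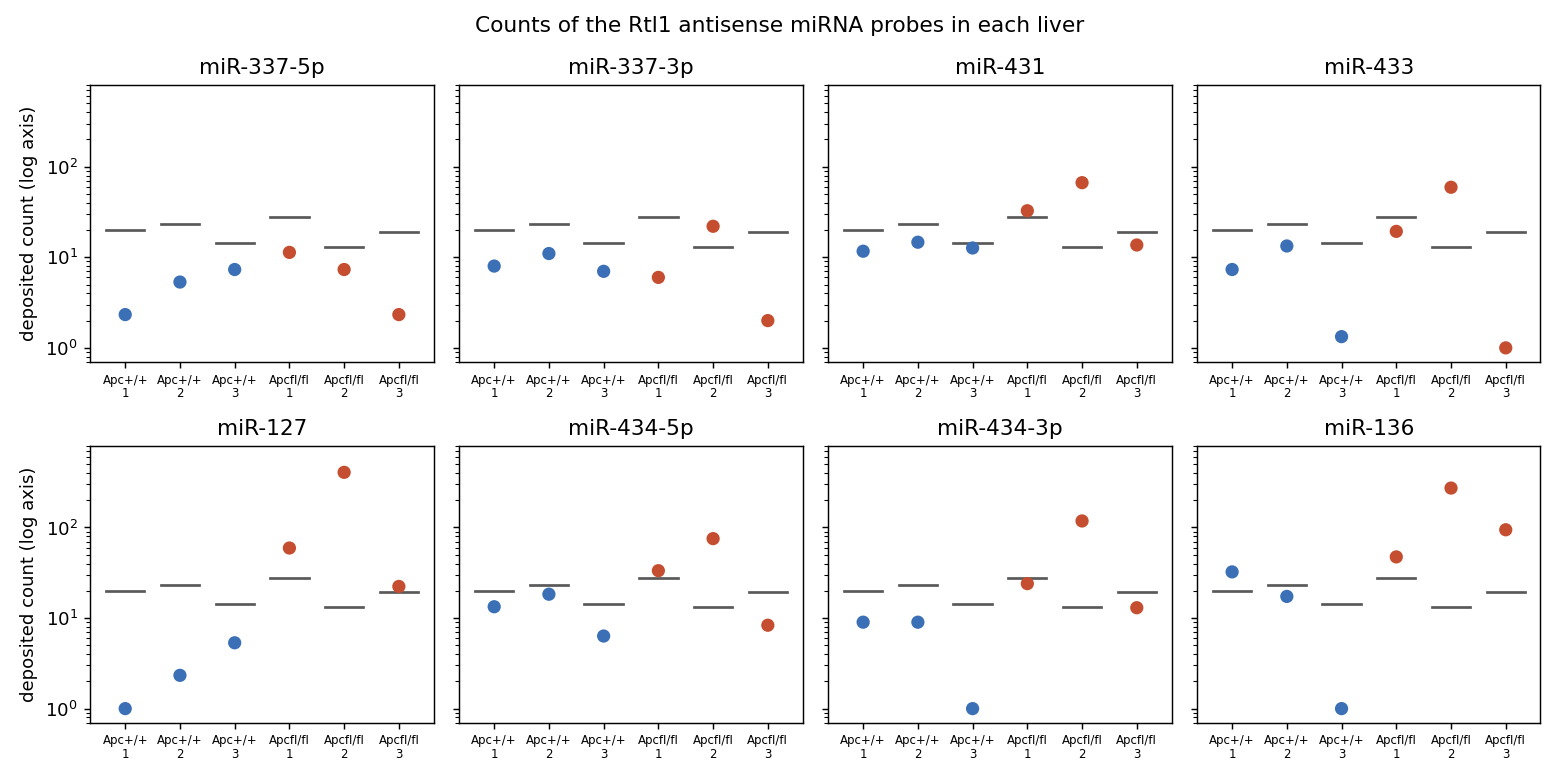
Deposited counts (log axis) of the 8 probes in each of the 6 livers, with panels in the order of the hairpins along the chromosome, blue for normal (Apc+/+) livers and red for tumours (Apcfl/fl). Grey bars mark the limit from the viral probes in that liver, which all 3 tumours exceed for miR-127 and miR-136 and no liver exceeds for miR-337-5p.

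Of the 8 members, 5 passed the count minimum and were tested, and all 5 had a higher fitted level in the tumours. Most of them passed the minimum through tumour 2, without which miR-136 alone would be tested. None of the 5 reached an adjusted p under 0.05 in edgeR's test, as was true of the panel as a whole (0.0% of 174 tested miRNAs higher in the tumours). At an unadjusted p under 0.05, 1 member was higher, miR-127, beside 13.8% of the 174. When all 566 probes were fitted with no filter, 3 of the 8 members were higher at that level (miR-127, miR-136 and miR-434-3p), beside 9.54% of the panel. DESeq2 called 1 member at an adjusted p under 0.05, again miR-127, beside 11.5% of the 174. The groups did not overlap for 2 of the 8 members, both higher, beside 5.12% of all mouse probes, and 0 of the 8 were lower without overlap, beside 20.5%. Without tumour 3, 6 of the 8 lay higher without overlap, beside 8.3% of all mouse probes, and without tumour 2, 1 of the 8 (miR-337-3p) lay lower without overlap, beside 25.8%. The median difference over all 8 members was 0.71 on the log2(normalised count + 2) scale, compared with -0.35 over all 566 mouse probes. Of the 566 probes, 311 exceeded the limit in no liver, against 1 of the 8 members, so the panel median rests largely on scaled background. The median fitted log2 fold change over the 174 tested miRNAs was 0.01. With libraries scaled anew, the member median was 0.02 compared with -0.30 without tumour 2 and 1.75 compared with -0.33 without tumour 3. With the scaling of all 6 livers kept, the member median was -0.03 compared with -0.34 without tumour 2, and 4 of the 8 members lay above 0.

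Most members ranked the 3 tumours alike, in part on values at background. In 7 of the 8 members tumour 2 was the highest of the 6 livers, beside 12.2% of all 566 mouse probes and 26.4% of the 174 tested. Where the next liver was itself above background, the normalised count of tumour 2 exceeded it 8.06-fold for miR-127, 4.66-fold for miR-136, 2.66-fold for miR-434-5p and 2.40-fold for miR-431. The other livers were all at background for miR-434-3p and miR-433, which were at least 4.4-fold and 2.2-fold higher in tumour 2 than the highest limit of those livers. No fold is given for miR-337-3p, which did not exceed that limit. The tumours followed the order tumour 2, tumour 1, tumour 3 in 6 of the 8 members, beside 23.3% of all mouse probes and 19.5% of the tested ones, and the exceptions were miR-136 and miR-337-5p. Among the 6 that followed it, miR-127 alone exceeded the limit in all 3 tumours. Tumours 1 and 3 were both at background for miR-434-3p, miR-433 and miR-337-3p, whose order in those tumours carries little information. For miR-431 and miR-434-5p, tumour 3 was the only tumour at background. Relative to the mean of the normal livers, the median of the members was 1.02, 2.57 and -0.93 (log2) in tumours 1 to 3. The corresponding medians over all mouse probes, most of which were at background in every liver, were -0.18, -0.35 and -0.52.

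Across the 6 livers the profiles of the 5 tested members ran together, with a Pearson r of 0.56 to 0.95 over their 10 pairs and a median of 0.82. The median over all 15051 pairs of tested miRNAs was -0.01. Since 4 of the 5 passed the count minimum only through tumour 2, a high value there was part of how they came to be tested. The closest pair was miR-434-5p and miR-431. The correlation is a description over livers that share their library with every probe, and it rests in part on tumour 2: over the other 5 livers r ran from -0.08 to 0.87, with a median of 0.38 (panel median -0.01). miR-433, which was not tested, followed miR-434-5p with an r of 0.99. However, miR-433 exceeded the limit in tumour 2 alone and miR-434-5p in tumours 1 and 2. This r therefore rests largely on tumour 2 and on values at background. miR-337-5p, at background in every liver, had an r between -0.23 (miR-136) and 0.63 (miR-431) with the tested members.

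Likeness to the group was measured as the root mean square distance, in log2 units over the 6 livers, from the mean profile of the 5 tested members, each centred on its own mean. Of the 169 other tested miRNAs, whose median distance was 1.55, the 5 nearest were miR-381 (0.61), miR-541 (0.63), miR-369-3p (0.65), miR-99b (0.67) and miR-125a-5p (0.70). The members themselves lay at 0.33 for miR-434-3p, 0.70 for miR-434-5p, 0.77 for miR-431, 1.0 for miR-136 and 1.26 for miR-127. The 5 nearest others thus lay closer to the group mean than miR-431, miR-136 and miR-127 did. miR-381, miR-541 and miR-369-3p belong to the large miRNA cluster farther along the same imprinted region, and had 90.67, 110.33 and 217 counts in tumour 2 and at most 45 counts in any other liver. Like most members, these 3 passed the count minimum only through tumour 2, so that a high value there was part of how they came to be compared. miR-99b and miR-125a-5p lie outside the region. miR-125a-5p had 108, 166 and 110 counts in normal liver and 480, 678 and 420 counts in the tumours, with a log2 fold change of 1.58 (adjusted p = 0.064 in edgeR's test). After scaling, its centred profile stood at 0.72, 1.45 and 0.07 in tumours 1 to 3, the same order as in most members.

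**Figure D3:**
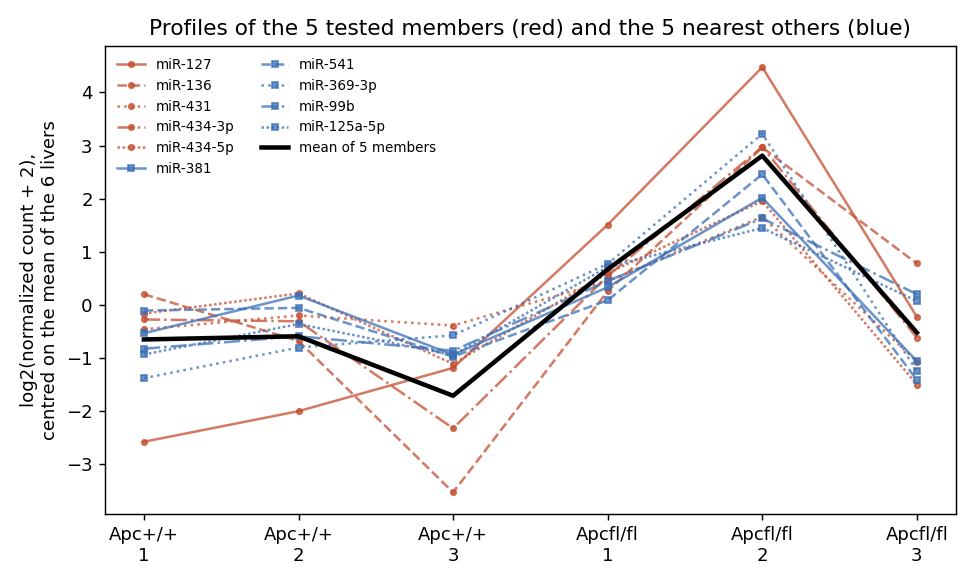
Profiles over the 6 livers of the 5 tested members (red), their mean (black) and the 5 other miRNAs nearest to that mean (blue), as log2(normalised count + 2) centred on the mean of each miRNA. The member mean peaks at 2.81 in tumour 2 and stands at 0.67 and -0.52 in tumours 1 and 3.

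Of the 55 other listed probes of the Dlk1-Dio3 region 17 were tested, 13 with a higher and 4 with a lower fitted level in the tumours. Without tumour 2, 12 of these 13 and 1 of these 4 would average under 20 counts, so the filter had a part in that division. None passed the adjusted threshold in edgeR's test, and DESeq2 called 6 higher and 1 lower at that threshold, beside 11.5% and 5.17% of the 174. At an unadjusted p under 0.05 in edgeR's test, 8 were higher and 1 lower, beside 13.8% and 10.9%. The groups did not overlap for 5 higher and 8 lower probes of the 55, beside 5.12% and 20.5% of all mouse probes, and 23 of the 55 exceeded the limit in no liver. Their median, relative to the mean of the normal livers, was -0.01, 0.32 and -0.60 (log2) in the 3 tumours. In tumour 2, 52.7% of these 55 exceeded the limit, and 22 of them were highest there. Inside the same Rtl1 gene model, 7 probes, for miR-432, miR-493, miR-540, miR-665 and miR-673, read miRNAs of 5 other genes, and none of the 7 was highest in tumour 2, beside the 12.2% of all mouse probes given above. Except for miR-432, these probes also belong to the list of 55. Of the 7, 5 were above background in no liver and miR-493 in normal liver 3 alone, so that their order over the livers carries little information. miR-540-3p, which exceeded the limit in 5 of the 6 livers, had 19.33, 34.33 and 35.33 counts in normal liver and 28.33, 13.33 and 42.33 counts in the tumours, with its lowest value in that tumour. miR-432, with 7, 15 and 8 counts against 16, 9 and 8, was among the 5 at background. These 7 probes were singled out after their values had been seen.

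**Figure D4:**
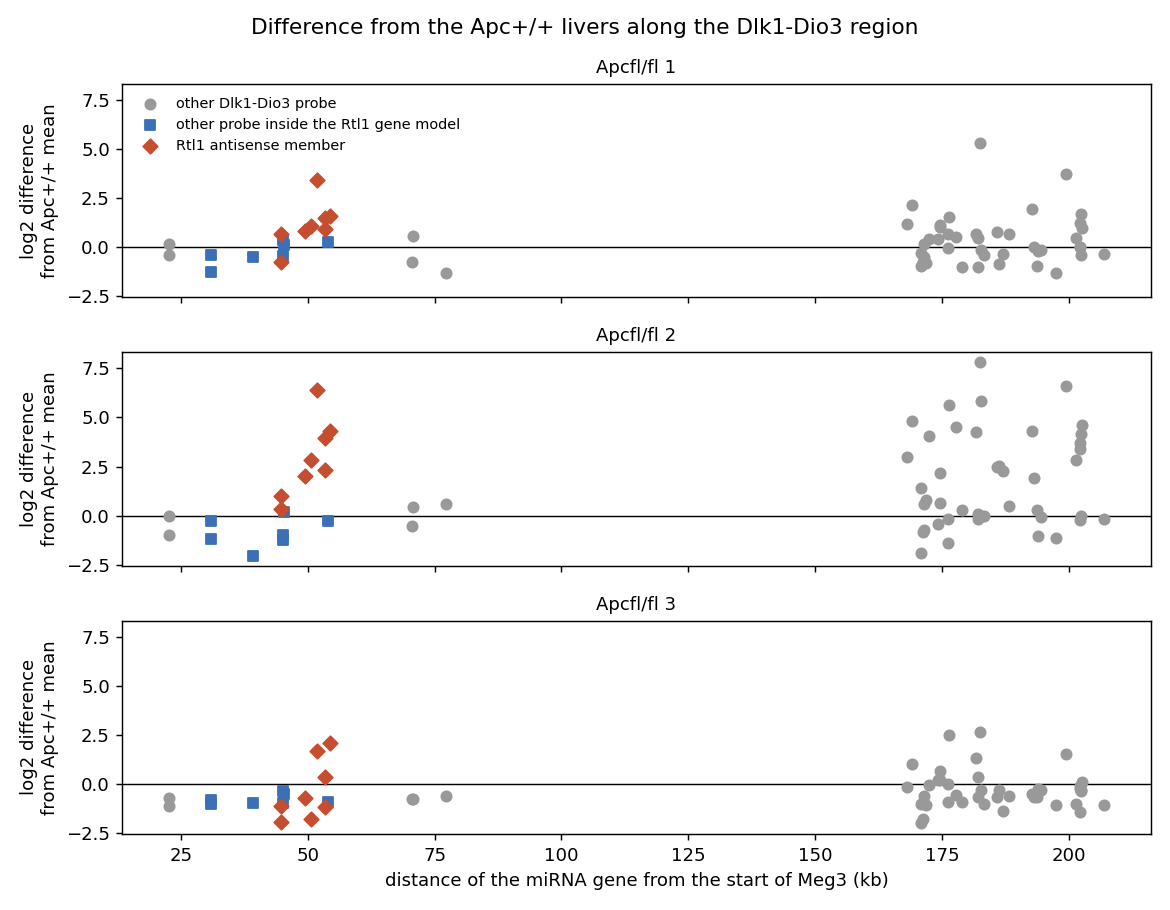
Difference from the mean of the normal (Apc+/+) livers, in log2(normalised count + 2), of each placed probe of the region in the 3 tumours (Apcfl/fl), against the distance (kb) of its miRNA gene from the start of Meg3. Red diamonds are the 8 Rtl1 antisense probes, blue squares the 7 other probes inside the Rtl1 gene model and grey circles the other probes of the region. In tumour 2 the red diamonds lie above 0 while the blue squares lie near or below it.

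Some markers of blood cells were also highest in tumour 2. The 8 probes of the list, for miRNAs of red and white blood cells, summed to 1181, 1225 and 1643 normalised counts in the normal livers and to 1039, 4950 and 1837 in the tumours, and 5, 6 and 6 against 5, 7 and 7 of them exceeded the limit. The largest part of that sum was miR-451, a miRNA of red cells, with 3593 counts in tumour 2 and at most 1452 in the other livers. miR-144 and miR-486, likewise of red cells, and miR-155 were also highest in tumour 2. The leucocyte miRNAs miR-142-3p and miR-223 were highest in tumour 3, with 186 and 301 normalised counts against 74.1 and 156 in tumour 2. miR-150, of lymphocytes, was highest in normal liver 2, and miR-142-5p was at 1 count in all 6. The blood cell sum was lowest in tumour 1, although miR-223 had 121 normalised counts there against 65.6 to 76.2 in the normal livers. The part of the blood cell miRNAs in the level of the Rtl1 antisense miRNAs was not tested. Of 4 probes for miRNAs of neurons, 1, 0 and 0 exceeded the limit in the normal livers and 1, 1 and 1 in the tumours, and their sums were 62.26, 54.42 and 38.48 against 48.87, 45.89 and 19.26 normalised counts. Of 11 probes for miRNAs of pluripotent cells, 1, 0 and 0 exceeded the limit in the normal livers and none in any tumour. Mesenchymal markers summed to 893.9, 1318 and 1182 normalised counts in normal liver and to 322.3, 517.2 and 725.1 in the tumours, with their lowest value in tumour 1. Among them miR-199a-3p was highest in tumour 3, with 238 normalised counts, and the others were highest in a normal liver.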

How the data were processed

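The authors deposited estimated counts per probe, not scaled between livers. All values above 1 of a probe shared 1 decimal part (584 of 584 probes with at least 2 such values). A constant subtracted beforehand would leave this pattern. The floor of 1 held 12.4% of values, with 4 of the 48 member values. Whether a constant was subtracted, and with what tool, is not given in the sources used here. Groups and replicate numbers came from the labels, and the design counts 3 mice a genotype. No column was without a sample.

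Counts were rounded and compared with edgeR 4.0.16 in R 4.3.3 (quasi-likelihood test, TMM, Benjamini-Hochberg) over the 174 mouse miRNAs that averaged 20 counts or more, which held 97.3% of the mouse counts. Replicates gave a chi-square of 17.2 to 89.1 for each degree of freedom, so none was a duplicate. The members, lists and tests were chosen with earlier results of these data known. The rule for named miRNAs took all members, the 5 nearest profiles and miR-122 as the tissue check, and others are cell type markers or were named after their values had been seen. Alternatives were DESeq2 1.42.0, limma 3.58.1, other scalings, filters and limits, a replicate block and each liver left out. Fitting all probes without tumour 2 was added after the data had been seen. The procedure was tested on simulated data. Sequences and positions are from RefSeq.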

Additional observations from a re-analysis of the deposited data

How the results depend on the processing

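No member was called by edgeR as reported, nor by limma, scaling to the 100 most abundant miRNAs, the fit with no filter or the replicate block, and 1, miR-127, was called with DESeq2, the total count as library size, a count minimum of 60 or viral probe subtraction (its log2 fold change 5.65, 5.92, 5.72 and 6.83). With 1 liver left out, 0 to 1 members were called, the 1 being miR-127 without tumour 3 (6.11, adjusted p = 0.046 in edgeR's test). Over the panel, 0 higher and 0 lower became 20 and 9 with DESeq2, 2 and 3 with limma, 1 and 6 with the 100 most abundant, 16 and 1 when scaled to the total, 12 and 6 with the minimum of 60, 12 and 7 with viral subtraction, 4 and 3 with the replicate block, and 0 to 11 and 0 to 8 with 1 liver left out, the most without tumour 3. The other Dlk1-Dio3 miRNAs called higher went from 0 to 6 (DESeq2), 1 (limma), 4 (total count), 2 (minimum of 60), 2 (viral subtraction), 2 (replicate block) and 0 to 5 (1 liver left out). Scaling to the total count shifted the median over the 174 tested miRNAs from 0.01 to 0.45 (log2), and the member median was 1.05. Members above background in tumour 1 numbered 1 instead of 4 with the highest viral probe as the limit. Members without overlap numbered 2 to 6 higher (6 without tumour 3) and 0 to 1 lower (1 without tumour 2) with 1 liver left out. Over all mouse probes the shares higher and lower without overlap were 8.13% and 6.36% with the total count and 6.89% and 41.7% with viral subtraction, instead of 5.12% and 20.5%. The member median, with libraries scaled anew, ranged from 0.02 without tumour 2 to 1.75 without tumour 3. With no filter and without tumour 2, miR-127 had a log2 fold change of 3.59 (adjusted p = 0.071 in edgeR's test), and miR-337-3p reversed, to -1.36 from 0.24. The fitted direction of the 5 tested members held under each setting that gave a value, but without tumour 2 miR-136 alone was tested. The difference of mean log2 values then went, with the scaling kept, from 0.71 to -0.10 for miR-434-5p, from 0.70 to 0.04 for miR-431 and, untested, from 0.72 to -0.34 for miR-433. Replicate numbers did not pair the livers (correlations of deviations -0.0562, -0.0558 and 0.125), and miR-127 had 4.59 (adjusted p = 0.086) with the block. The causes were not tested. Only 14 of the 48 member values exceeded the limit, so 3 livers a group and low counts restrict what can be resolved.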

Other observations

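Elsewhere in the Dlk1-Dio3 region, several miRNAs at background in all 3 normal livers had higher counts in the tumours, and they were picked out after their values had been seen. miR-376b, of the large cluster, had 7, 1 and 1 counts in the normal livers and 211, 1026 and 43 in the tumours, at least 18-fold higher against the mean limit of the normal livers and at least 4.6-fold without tumour 2. miR-377 exceeded the limit in tumours 1 and 2 and was at least 7.4-fold higher, or 1.5-fold without tumour 2. miR-543, above the limit in tumours 2 and 3, and miR-411, above it in tumour 2 alone, were at least 2.6-fold and 1.7-fold higher, and both bounds were under 1 without tumour 2. Their adjusted p-values in edgeR's test were 0.056 for miR-376b, 0.075 for miR-377, 0.068 for miR-543 and 0.087 for miR-411. In the opposite direction, miR-154, above background in all 6 livers, was lower in the tumours with a log2 fold change of -1.19 (SE 0.26, adjusted p = 0.056 in edgeR's test). None of these 5 passed the threshold in edgeR's test.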
